A study of Oryza sativa Japonica Group with 28 samples.

Results

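The rice genes described here are the 103 genes, of 45990 in the deposited table, whose gene ontology columns hold lipid transport or lipid binding among their biological processes or molecular functions. Lipid transport was given for 101 of them and lipid binding for 30. The transport term stood alone for 73 genes, both terms were given for 28, and the binding term stood alone for 2. All plants were Oryza sativa cv. Nipponbare grown in hydroponic solution with no further treatment or transgene, and grain tissues were cut out by laser from frozen sections, with 3 grains per preparation. The 28 libraries form 13 groups: cross cells (CC, 2, 1 and 2 libraries), nucellar epidermis (NE, 3, 3 and 3), ovular vascular trace (OVT, 3, 2 and 1) and endosperm (EN, 1, 2 and 2) at 4, 8 and 16 DAF (days after flowering), and the aleurone layer (AL, 3) at 16 DAF.

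Plant lipid transfer proteins are small secreted proteins, rich in cysteine, that hold a fatty acid or phospholipid in a pocket and carry it between membranes or to the cell surface. Many are made by epidermal cell layers, where cutin and wax are laid down, and in barley and wheat they are abundant in the aleurone, the outermost and oil-rich layer of the endosperm. CC are the green layer of the fruit wall, NE is the last layer of maternal nucellus around the endosperm, and OVT is the vascular strand that feeds the grain. Neither the table nor the reference names any of the 103 genes, so each is given by its RAP identifier, whose first digits are the chromosome, and by its ontology terms. Which of them encode lipid transfer proteins is not stated, and 0 of 103 matched the reference table, so no sequence is shown.

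Values are signal values, which are reads per gene multiplied by 1 factor for each library, and a read was worth from 0.0441 (NE MM18 of 16 DAF) to 11.1 (OVT of 16 DAF). Libraries are named by the MM number of their titles. Estimated reads per library ran from 815238 (CC of 8 DAF) to 97251540, with a median of 6868573. Some libraries stood apart. NE MM17 and AL MM17 of 16 DAF correlated at 0.99 over the tested genes, while libraries of 1 group reached at most 0.955. The OVT library of 16 DAF is marked as excluded in the study's library table, and CC MM05 carries 4 DAF in its title and 8 in its day tag (it was taken as 4 DAF). Photosynthesis genes marked CC, with 0.122 to 0.727% of the signal in CC libraries and at most 0.103% elsewhere. The EN list took 17.65 to 23.45% of EN libraries of 8 and 16 DAF, but also 9.11 to 9.65% of AL MM17, AL MM18, NE MM17 and CC MM17 and 6.055% of the OVT library, all of 16 DAF. The AL list took 0.338 to 0.645% of AL libraries and 0.0623 to 0.598% of NE libraries of 16 DAF. Of the 4 NE markers, 3 were at 0 in every AL library, and NE libraries of 16 DAF held 0.000368 to 0.0261%. The same 3 were also at 0 in 1 or more NE libraries of 16 DAF (means 0, 0.588 and 77.5), so their absence from AL tells little. The other marker, Os02g0170300, was at 3.37 to 232.9 in AL and at 35.75 to 1115 in NE of 16 DAF.

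Of the 103 genes, 30 were at 0 in all 28 libraries and 19 more did not reach both a value of 10 and 10 estimated reads in any library. The other 54 were tested (52.4%, against 59.9% of all genes). They included 23 of the 28 genes with both terms, 29 of the 73 with the transport term alone and both genes with the binding term alone. The genes were short, with a median length of 730 bases against 1158 over the table, and 84.5% of them were under 1000 bases against 43.1% of all genes. Their median GC content was 57.7% against 53.9%. A gene listed at 0 may have had up to 3 reads, worth 0.132 in NE MM18 of 16 DAF and 33.4 in the OVT library of that day, so 0 in the latter need not mean absence. Such limits cover counting error only, since amplified reads without molecular tags are not independent molecules.

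**Figure D1:**
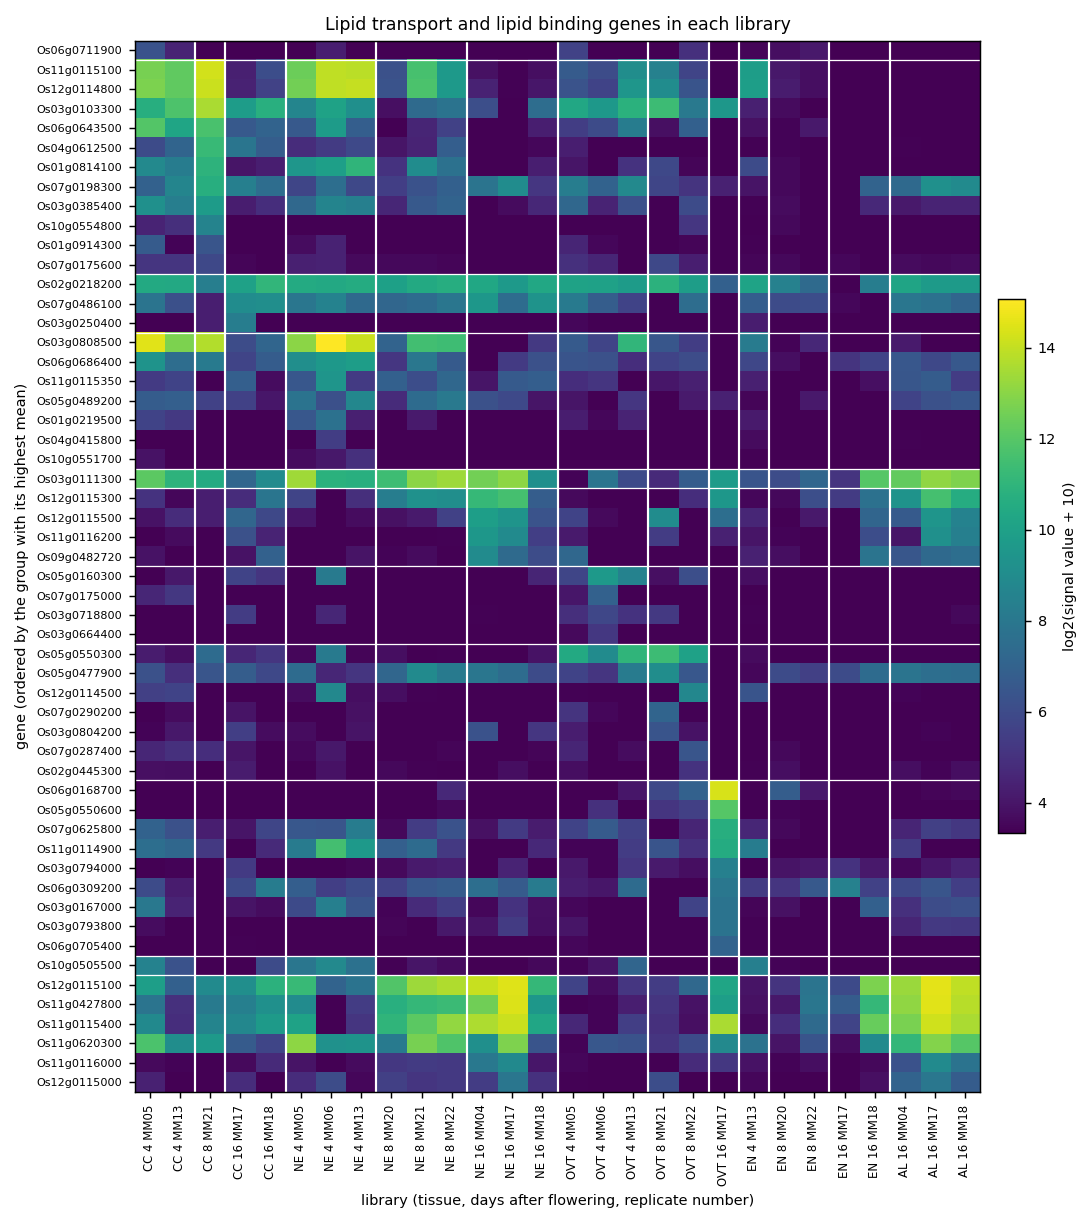
Heat map of log2(signal value + 10) for the 54 tested genes (rows, ordered by the group with the highest mean) in the 28 libraries (columns, by tissue and day, white lines between groups). Os03g0808500, Os11g0115100 and Os12g0114800 were bright in CC and NE at 4 DAF and in CC at 8 DAF, and Os11g0115400, Os12g0115100 and Os11g0427800 in NE at 8 and 16 DAF and in AL.

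The 103 genes together took their highest shares of signal in NE, CC and AL. Their share of library signal was 1.15 to 1.66% in NE and 0.645 to 1.36% in CC at 4 DAF, 1.01% in CC and 0.277 to 1.07% in NE at 8 DAF, and 0.711 to 0.898% in AL and 0.186 to 0.885% in NE at 16 DAF. In CC at 16 DAF the shares were 0.0821 and 0.195%, below every AL library, and NE MM18 at 0.186% lay between them. OVT libraries held 0.0767 to 0.16% on all days. EN libraries held 0.0594% at 4 DAF, 0.00478 and 0.00486% at 8 DAF, and 0.00139 (MM17) and 0.052% (MM18) at 16 DAF. The shares were also taken with the 10 genes of most signal in each library left out, including any of the 103 among them. At 4 DAF they were then lower in NE MM06 (0.312%), NE MM13 (0.617%) and CC MM05 (0.818%). In these libraries Os03g0808500 led, with 42.6, 30.1 and 41.7% of the signal of the 103 genes. The shares of EN were higher, at 0.0089 and 0.0113% at 8 DAF and 0.00285 and 0.0893% at 16 DAF. No other share moved by over 1.5 times. In bulk tissue, fewer cells of a type and less RNA per cell cannot be told apart.

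**Figure D2:**
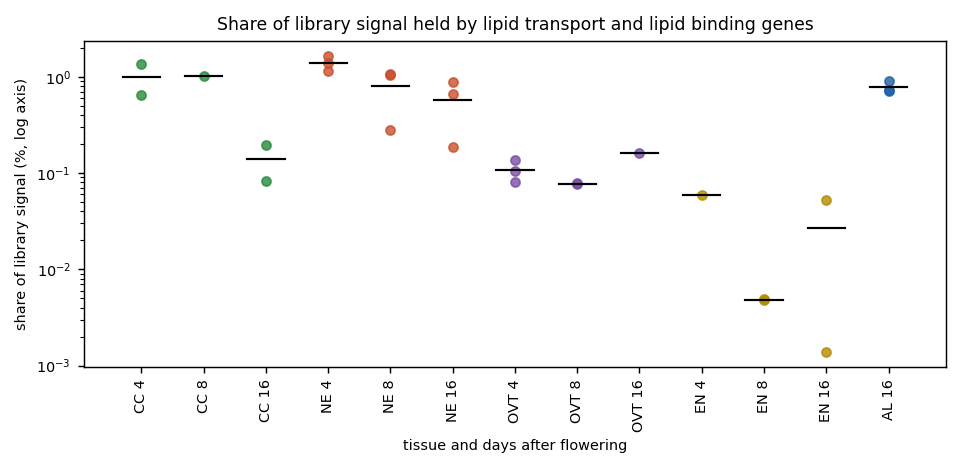
Share of each library's signal held by the 103 genes (percent, log axis) by tissue and days after flowering. Points are libraries and lines are group means. NE, CC of 4 and 8 DAF and AL lie between 0.186 and 1.66%, and EN of 8 DAF lies near 0.005%.

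Single genes accounted for much of this. Per kilobase of gene length, the mean of Os03g0808500 (both terms) ranked 2 of all 45990 genes in NE at 4 DAF and also 2 in CC at 4 DAF. Os12g0114800 and Os11g0115100 (both terms) ranked 6 and 7 in NE at 4 DAF, and Os11g0115100 ranked 6 in CC at 8 DAF. In AL the highest per kilobase were Os12g0115100, Os11g0427800 and Os11g0115400 (all with both terms), at ranks 49, 50 and 53. Os03g0111300, which has the transport term alone, ranked 12 in NE at 8 DAF. No gene of the group ranked above 3108 in EN at 8 DAF.

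The change with age within NE asked which genes differ between the young and the old layer. Between 4 and 16 DAF, 13 of the 54 tested genes fell and 8 rose (4.26% of all tested genes fell and 2.73% rose). The median log2 fold change was -0.30 over the 54 and -0.09 over all tested genes. Of the 13 that fell, 6 have both terms and 7 the transport term alone. Of the 8 that rose, 7 have both terms and Os09g0482720 has the binding term alone.

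The highest of the early genes nearly vanished from old NE. Os03g0808500 was at 8228, 34350 and 18020 in the NE libraries of 4 DAF (MM05, MM06 and MM13), at 125.4, 2936 and 2720 at 8 DAF (MM20, MM21 and MM22) and at 0, 0 and 29.17 at 16 DAF (MM04, MM17 and MM18). No library of 16 DAF came near those of 4 DAF. By limma's test on log2(value + 10), it fell by 10.09 on that scale (standard error 1.14, adjusted p = 1.42e-05). Os11g0115100 was at 5574, 16000 and 14720 at 4 DAF and at 4.51, 0.504 and 3.35 at 16 DAF, and fell by 9.76 (standard error 1.01, adjusted p = 6.79e-06). Os12g0114800 followed the same course, from 6140, 15710 and 16850 to 12.03, 0.504 and 6.49, and fell by 9.56 (standard error 1.04, adjusted p = 9.46e-06). In both genes every library of 4 DAF lay far above every library of 16 DAF. The lipid transport gene Os01g0814100 was at 720.5, 984.9 and 2074 at 4 DAF and at 0, 0 and 9.62 at 16 DAF and fell by 6.52 (adjusted p = 6.99e-05). Os11g0114900 (both terms) varied more among young libraries, at 285.7, 2964 and 775.4, and was at 0, 0 and 15.9 at 16 DAF and fell by 6.01 (adjusted p = 0.000218). All 5 of these falls passed the test under every alternative that was run. The other 8 fell by 0.94 to 4.76, and the libraries of 4 and 16 DAF did not overlap for any of the 13. Os01g0219500 (both terms) was at 0 in all 3 NE libraries of 16 DAF, at least 92-fold lower than at 4 DAF when 3 reads per library are set as the floor.

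A second group of genes rose over the same days. Os11g0115400 (both terms) was at 1090, 0 and 25.5 in NE at 4 DAF, at 2077, 4359 and 9121 at 8 DAF and at 12690, 17850 and 1210 at 16 DAF. The lowest library of 16 DAF, MM18, lay just above the highest of 4 DAF, MM05. Its rise was 6.48 (standard error 1.49, adjusted p = 0.00939). Os11g0427800 (both terms) was at 504.7, 0 and 31.8 at 4 DAF and 1689, 2222 and 2564 at 8 DAF. The libraries of 16 DAF reached 5819, 22130 and 730.1, a rise of 6.25 (standard error 1.3, adjusted p = 0.0043). Os12g0115300 (both terms) was at 43.8, 0 and 19.6 at 4 DAF and at 2365, 3085 and 101.9 at 16 DAF, a rise of 5.22 (adjusted p = 0.00533). For these genes too the library MM18 was the lowest of the 3 at 16 DAF, although it was the deepest. Os12g0115500 (both terms) rose by 4.87, from 6.15, 0 and 3.18 to 940.1, 673.6 and 71.2 (adjusted p = 0.0162). Os11g0116200 (both terms) was at 0 in every young NE library and at 733.9, 476.1 and 35 at 16 DAF, at least 83.4-fold higher against a floor of 3 reads per library (adjusted p = 0.00999). Os12g0115100 rose by 4.56 with overlapping libraries (123.7 to 2383 at 4 DAF and 2252 to 23320 at 16 DAF, adjusted p = 0.0352).

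The rises were less secure than the falls when libraries were left out or a replicate block was added. Voom called 1 gene higher and 16 lower. A read was worth 0.0441 to 0.5035 in NE of 16 DAF and 1.06 to 2.38 in NE of 4 DAF. With voom, a gene at 0 on both days therefore comes out lower at 16 DAF. How many of the 16 were such genes was not tested, so the voom counts cannot compare rises with falls. With the MM number in the fit as a replicate block, 0 genes were higher and 6 lower. The 8 rising genes became 1 without NE MM04 of 16 DAF, 4 without NE MM17 of 16 DAF and 3 without NE MM06 of 4 DAF, while the 13 falling genes were 9 to 14 with any library left out. Of the NE libraries of 4 DAF, 2 of 3 carry another title prefix than all libraries of 16 DAF, and with the prefix in the fit 2 genes rose. The AL marker list moved with the rising genes: it held 0.0323 to 0.178% of the signal in NE at 4 DAF, 0.0797 to 0.341% at 8 DAF, and 0.385, 0.598 and 0.0623% in MM04, MM17 and MM18 at 16 DAF, and its part in the result was not tested. All 5 AL markers were above 0 in every NE library of 8 and 16 DAF, and 4 in every NE library of 4 DAF. All 5 were also above 0 in the EN library of 4 DAF and the CC library of 8 DAF, so presence alone was not particular to older NE.

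**Figure D3:**
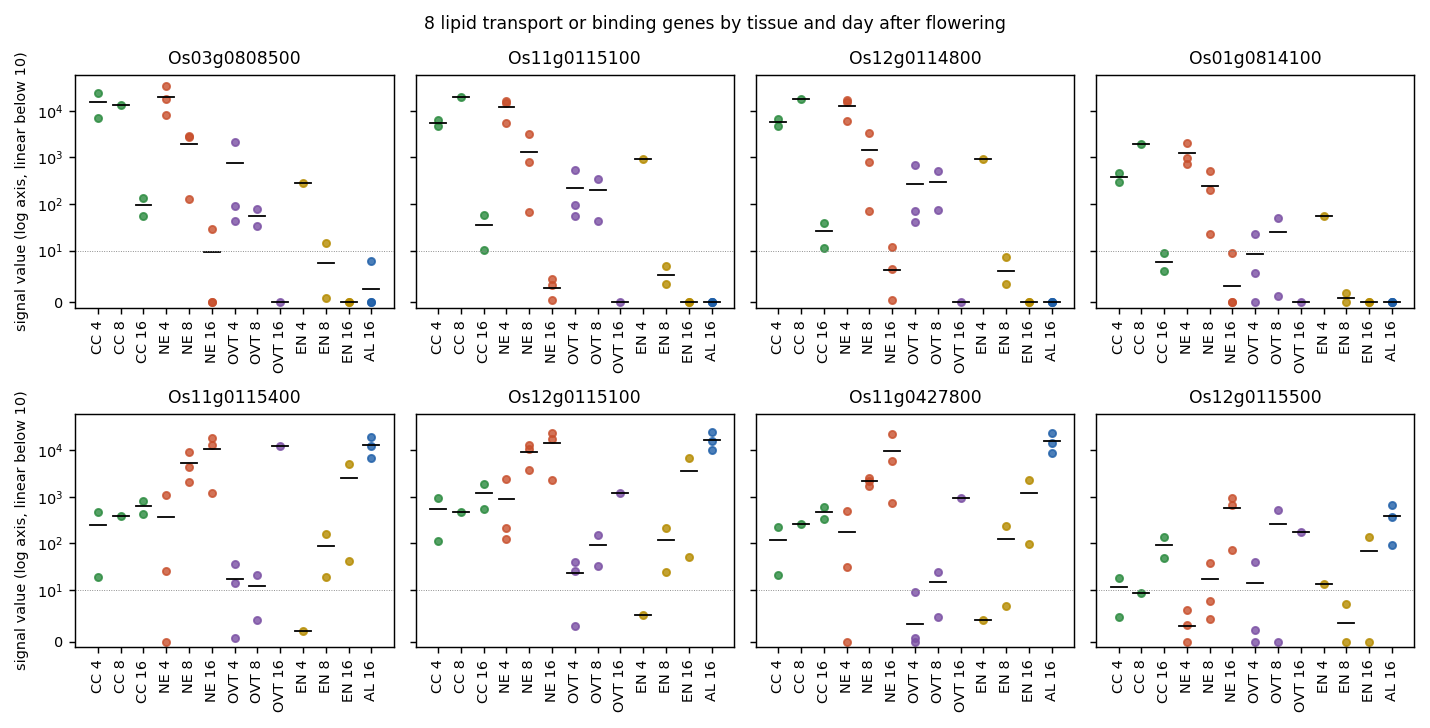
Signal values of 8 genes (log axis, linear below 10) by tissue and days after flowering. Points are libraries and lines are group means. The 4 genes of the upper row lie above 295 in every CC and NE library of 4 DAF and at or below 30 in NE and AL at 16 DAF, and the 4 genes of the lower row have their highest group means in NE or AL at 16 DAF.

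In CC, 6 of the 54 genes fell from 4 to 16 DAF (2% of all tested genes fell) and 0 rose. Over all tested genes 0.727% rose. At an unadjusted p under 0.05, 1 gene was higher, and voom called 0. The 6 genes were Os12g0114800, Os11g0115100, Os03g0808500, Os01g0814100, Os06g0643500 and Os03g0385400, and all 6 also fell in NE. The CC libraries of both days share their MM numbers with NE libraries. The labels do not say whether libraries with the same number came from separate plants. Os12g0114800 was at 6808 and 4687 at 4 DAF (MM05 and MM13), 18050 in the library of 8 DAF, and 11.6 and 40.1 at 16 DAF (MM17 and MM18). It fell by 7.43 (standard error 1.28, adjusted p = 0.00198). Os03g0808500 was at 23720 and 6970 at 4 DAF, 13290 at 8 DAF, and 56.8 and 131.6 at 16 DAF, and fell by 7.05 (standard error 1.4, adjusted p = 0.00661). Both genes thus stayed high in CC at 8 DAF, when in NE they had means of 1421 and 1927. Without CC MM05 of 4 DAF, the library with 2 day labels, the 6 became 2, and they became 3 without either CC library of 16 DAF and 0 with voom. Both CC libraries of 4 DAF carry the other title prefix, and with the prefix in the fit 4 genes fell.

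The difference between the change in NE and the change in CC was tested as an interaction. No gene of the 54 was called (0.0545 and 0.0291% of all tested genes were called in the 2 directions), 4 had an unadjusted p under 0.05, and the smallest adjusted p was 0.512. For Os11g0115400 the NE change exceeded the CC change by 4.12 (standard error 2.36, adjusted p = 0.742). The rise of this and the other late genes is therefore not shown to be particular to NE. CC libraries of Os11g0115400 were at 474.1 and 18.7 at 4 DAF and 425.7 and 829.7 at 16 DAF.

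Between tissues at 4 DAF, NE, CC and OVT were each set against the mean of the other 3 tissues. EN (1 library) was not set against the others at that stage. NE was higher for 2 genes (0.381% of all tested genes) and lower for 0 (0.454%). Voom called 0 lower and 1 gene had an unadjusted p under 0.05 in that direction. The 2 were Os01g0814100, whose NE libraries lay above those of every other tissue (CC 456.1 and 297.8, OVT 5.75, 0 and 22.5, EN 54.5; a log2 difference of 3.94 with a standard error of 0.761, adjusted p = 0.0118), and Os03g0808500, whose NE and CC libraries overlapped (adjusted p = 0.0497). This count was 1 to 5 with any library left out, 6 with a pseudocount of 30 and 0 with a pseudocount of 1.

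CC at 4 DAF was higher for 2 genes (1.78% of all tested genes) and lower for 0 (0.338%). Voom called 0 lower, and 1 gene had an unadjusted p under 0.05. Os06g0643500 was at 3875 and 1194 in CC, at 86, 866 and 105.1 in NE, at 33.7, 53.6 and 292.4 in OVT and at 4.19 in EN (log2 fold change 5.04, standard error 0.954, adjusted p = 0.00278). Os10g0554800, at 12.6 and 20.4, was at 0 in all 7 other libraries of 4 DAF (adjusted p = 0.0309). Both are annotated with lipid transport alone. Without CC MM05, 0 genes were called, and 5 without OVT MM05.

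OVT at 4 DAF was lower for 8 genes (5.61% of all tested genes) and higher for 3 (6.07%). The genes lower there included the leading genes of NE and CC. Os12g0114800 was at 71.1, 41.2 and 705.2 in OVT against a plain mean of 6528 over the 3 other tissues. The limma test, made on group means of log2 values, gave a difference of -4.79 (adjusted p = 0.00112). Os11g0115100 was at 94.9, 56.7 and 525.3 against a plain mean of 6193 (adjusted p = 0.00114). Os11g0114900 was at 0.822, 0.777 and 32.1 in OVT and at 140.4 or more in every other library (adjusted p = 0.000523). EN, with 933.1 and 937.3 for Os11g0115100 and Os12g0114800, lay between. Os01g0814100 was also lower in OVT (adjusted p = 0.000625), and so was Os11g0620300 (lipid transport), at 0.822, 81.6 and 70.7 (adjusted p = 0.0419). The 8 became 4 without OVT MM05 and 16 without the EN library.

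The genes higher in OVT were others. Os05g0550300 (lipid transport) was at 1401, 496.5 and 2053 in OVT at 4 DAF, and outside OVT only NE MM06 exceeded 10 at that stage, at 266.5 (log2 fold change 5.93, standard error 0.797, adjusted p = 1.34e-05). At 8 DAF it was at 2661 and 1049 in OVT, 161.6 in CC and at most 3.65 in NE and EN (log2 fold change 5.97, standard error 0.912, adjusted p = 0.000104). It passed the test under every alternative at both stages, and it was listed at 0 in the OVT library of 16 DAF. Os03g0718800 (lipid transport) was at 19.7, 45.8 and 22.5 in OVT at 4 DAF (adjusted p = 0.00921). The third, Os05g0160300 (lipid transport), was at 45.2, 786.3 and 356.6 and overlapped with NE MM06 at 271.2. At 8 DAF, OVT was higher for 4 genes (5.76% of all tested genes) and lower for 2 (4.08%). Besides Os05g0550300, these were Os05g0550600 (24.6 and 37.5, adjusted p = 0.00249), which stands beside it on chromosome 5, Os06g0168700, and Os07g0290200, at 127.3 and 0.595. The last rests on OVT MM21, without which its adjusted p was 1.

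At 8 DAF, CC was higher for 11 genes (7.44% of all tested genes) and lower for 0 (1.93%). Voom called 8 and 0, and 1 gene was lower at an unadjusted p under 0.05. This comparison rests on the single CC library of 815238 reads, and its test assumes that this library varies as the others do. In that library Os11g0115100 was at 19540, Os12g0114800 at 18050, Os03g0808500 at 13290 and Os03g0103300 (lipid transport) at 12240. Each lay above every NE, OVT and EN library of 8 DAF, where the highest values were 3156, 3392, 2936 and 2669. Os04g0612500 (lipid transport) was at 2368 in CC against at most 104.1 elsewhere (log2 fold change 7.28, standard error 0.86, adjusted p = 2.79e-06). Os06g0643500 was at 3318 against at most 112.4 (log2 fold change 7.15, adjusted p = 0.000338). The other 5 were Os01g0814100 at 1949, Os07g0198300 at 1664, Os03g0385400 at 874.7, Os10g0554800 at 370.8 and Os01g0914300 at 76.1. The count was 11 or 12 with any other library left out.

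NE at 8 DAF was higher for 5 genes (1.49% of all tested genes) and lower for 2 (1.58%). The 5 are those that were high in old NE. Os12g0115100 was at 3764, 10320 and 12880 in NE and at most 475.4 elsewhere (log2 fold change 5.71, standard error 1.19, adjusted p = 0.0105). Os11g0115400 was at 2077 or more in NE and at most 389.8 elsewhere (adjusted p = 0.0222). Os03g0111300 was at 2731, 8215 and 10300 in NE, 1426 in CC and at most 137.1 in OVT and EN (adjusted p = 0.021). Os11g0427800 (1689 to 2564 in NE against at most 266.2) and Os12g0115300 (308.5 to 609.1 against at most 61.3) completed the group. The 5 became 0 without NE MM21 or NE MM22, 1 without EN MM20 and 11 without the CC library.

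EN at 8 DAF was lower for 12 of the 54 genes (7.44% of all tested genes) and higher for 0 (5.42%). No gene was higher at an unadjusted p under 0.05 or with voom. The median log2 fold change was -0.98 over the 54 and -0.08 over all tested genes. Os03g0103300 was at 2.61 and 0 in EN against a plain mean of 4610 over the other tissues. The plain mean rests largely on the CC library at 12240, with OVT at 2669 and 261.7 and NE at 4.17, 156.6 and 212.7. The limma test, made on group means of log2 values, gave a difference of -6.39 (adjusted p = 0.000351). Os12g0114800, Os11g0115100 and Os03g0808500 were at 14.4 or less in both EN libraries, and Os07g0198300 (lipid transport) at 1.74 and 0. The 12 became 4 without EN MM20, 5 without EN MM22, 7 without the CC library and 0 with voom.

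**Figure D4:**
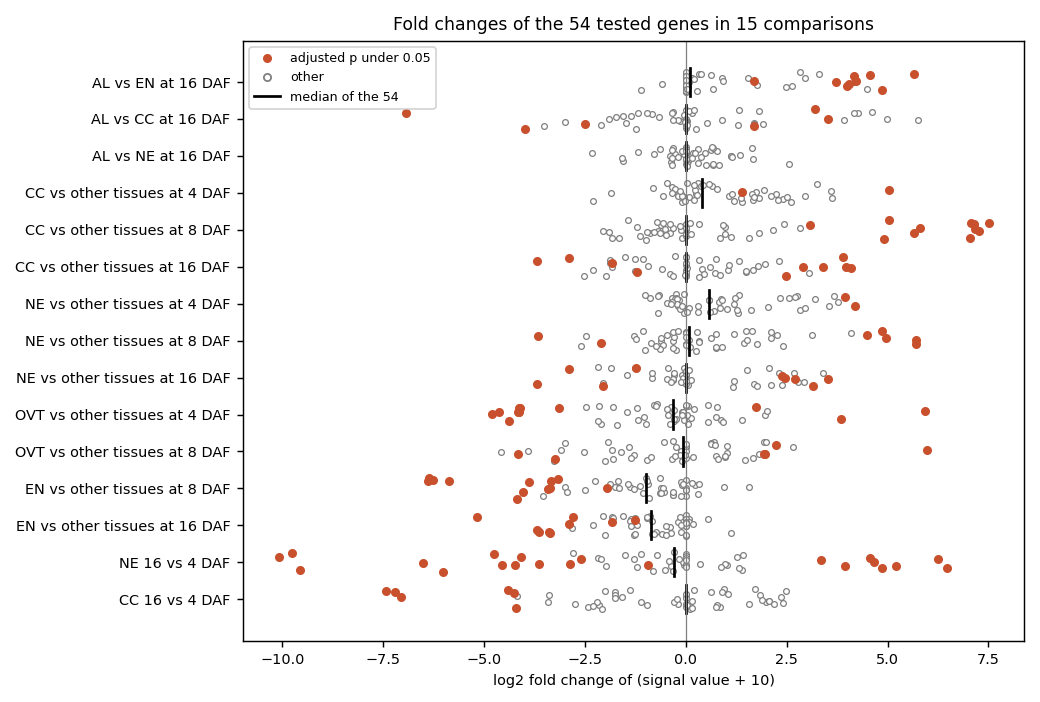
Log2 fold change of (signal value + 10) for the 54 tested genes in the 15 comparisons. Filled points have an adjusted p under 0.05 and black lines are the medians of the 54. AL against NE has no filled point, EN has filled points on the lower side alone, and NE at 16 against 4 DAF has 8 higher and 13 lower.

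At 16 DAF the OVT library that the study's table excludes decided many calls. Os06g0168700 (lipid transport) was at 20780 there and at 114.2 or less in every other library, and Os05g0550600 was at 3992 and at 37.5 or less elsewhere. CC and NE were each lower for 4 genes (2.27 and 3.12% of all tested genes), and both counts were 0 without that library. EN was lower for 9 (8.43%) and for 4 without it, and higher for 0 (7.64%, with 0 at an unadjusted p under 0.05 and 0 with voom). Os07g0625800 (both terms) was at 0 in both EN libraries and above 0 in all other libraries of that day, at 1646 in OVT (adjusted p = 0.00473, and 0.286 without OVT). CC at 16 DAF was higher for 6 genes (6.24%). The 3 whose CC libraries lay above all others were Os03g0103300 at 887.9 and 1685 (adjusted p = 0.0158), Os04g0612500 at 223.4 and 99.5 (adjusted p = 0.00073) and Os06g0643500 at 87.1 and 122 (adjusted p = 0.0306). Os04g0612500 alone of these held whichever CC library was left out. NE at 16 DAF was higher for 5 (5.03%), of which only Os12g0115000 (both terms; 33.1, 237.8 and 21.5, adjusted p = 0.0395) lay above every CC, OVT and EN library, and the 5 became 0 without NE MM04 and 1 without the OVT library.

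AL was compared with the inner endosperm, with CC and with NE. Against EN, 9 genes were higher (6.62% of all tested genes) and 0 lower (3.89%). At an unadjusted p under 0.05, limma gave 0 lower and voom 11, of which voom called 0 after adjustment. A read was worth 0.154 to 0.261 in AL and 1.63 and 3.83 in EN. With voom, a gene at 0 in both tissues therefore comes out lower in AL. How many of the 11 were such genes was not tested. Os11g0620300 was at 2176, 7668 and 4034 in AL (MM04, MM17 and MM18) and at 3.26 and 483.2 in EN (MM17 and MM18), a log2 fold change of 5.66 (standard error 1.64, adjusted p = 0.0284). Os11g0427800 was at 8751, 23680 and 14480 in AL and at 96.2 and 2270 in EN (adjusted p = 0.0324). Os12g0115100 was at 9942, 24630 and 15660 in AL and at 52.1 and 6935 in EN (adjusted p = 0.0457). For these genes EN MM18 was far above EN MM17, and over the 54 genes it correlated with the AL libraries at 0.91 to 0.934. In the same library the AL markers held 0.0269% of the signal, against 0.000215% in EN MM17, and their part in the EN values was not tested. Os11g0116000 (both terms) was at 68.2, 482.7 and 212 in AL and at 0 and 1.92 in EN (log2 fold change 4.23, adjusted p = 0.00742), and Os07g0486100, which is also annotated with lipid transporter activity, was at 235.3, 201.3 and 132.7 against 1.63 and 0 (4.17, adjusted p = 0.00774). The 9 became 1 without EN MM17, 11 without EN MM18, and 4 without AL MM17 or AL MM18. Os07g0486100 held under every alternative.

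Against CC, AL was higher for 3 genes and lower for 3 (1.39 and 2.12% of all tested genes). The lower ones were the more secure. Os03g0103300 was at 0, 0.261 and 0.254 in AL and at 887.9 and 1685 in CC (a difference of -6.92, standard error 1.12, adjusted p = 0.000785), and Os04g0612500 was at 0.462, 0 and 0 against 223.4 and 99.5 (a difference of -3.98, adjusted p = 0.00256). Both held under every alternative. The third, Os03g0250400, rests on CC MM17, at 303.3, since CC MM18 was at 0. The EN list held 9.65% of the signal in CC MM17 and 1.27% in CC MM18, and its part in the result was not tested. Os11g0116000, Os12g0115000 and Os03g0793800 were higher in AL, at adjusted p of 0.0454, 0.0499 and 0.0403, and leaving out 1 library gave 0 to 6 higher genes, with 0 without AL MM17, AL MM18 or CC MM17. The leading AL genes did not pass: Os12g0115100 was at 551.5 and 1868 in CC.

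Against NE, limma called 0 of the 54 genes and 0 of all 27527 tested genes (0% called in either direction). At an unadjusted p under 0.05, 2 of the 54 were lower in AL (Os03g0103300 and Os03g0804200). Voom gave 11 higher and 4 lower at that level and called 0 after adjustment. The log2 differences ran from -2.32 to 2.55, and 43 of 54 were under 1 in size. For Os11g0115400 the AL libraries were at 6661, 19020 and 12270 and the NE libraries at 12690, 17850 and 1210. NE MM17 and AL MM17 correlated at 0.998 over the 54 genes. Without NE MM17 again 0 genes were called, with 5 at an unadjusted p under 0.05, differences from -3.49 to 4.22 and a smallest adjusted p of 0.0778 (Os03g0804200, lower in AL). A test that calls nothing does not show that AL and NE had the same levels.

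Many of the genes lie side by side. Of the 103, 56 fell into 17 runs in which neighbouring members were at most 10 table rows apart. The run on chromosome 10 from Os10g0551700 to Os10g0552800 held 7 genes, of which 1 was tested, and all 4 genes from Os10g0349300 to Os10g0349900 were at 0 in every library. The runs on chromosome 11 (Os11g0114900 to Os11g0116200) and chromosome 12 (Os12g0114500 to Os12g0115500) held 6 genes each, and all 12 were tested.

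These runs hold early and late genes next to each other. Numbered by their order, the genes in the second place, Os11g0115100 and Os12g0114800, were high in young NE and CC and at 0 in all AL libraries. The genes in the fourth place, Os11g0115400 and Os12g0115100, were high in NE at 8 and 16 DAF and in AL. Genes in the same place correlated at 0.48 to 0.998 over the 28 libraries (median 0.896 of 6 pairs, on log2 values), and genes in different places at -0.519 to 0.932 (median 0.128 of 30 pairs). The libraries share tissue and scaling, so these are descriptions. The second pair differed by a median of 0.09 on the log2 scale and the fourth by 0.49, while Os11g0114900 and Os12g0114500 in the first place differed by 1.70. In the OVT library of 16 DAF the fourth pair came apart, with 12320 for Os11g0115400 and 1184 for Os12g0115100. Reads of near-identical copies may have been divided between them: of the values under 100 reads, 23 of 71 in the chromosome 11 run and 26 of 69 in the chromosome 12 run were not whole reads within 0.03, against 7.77% over all genes. Such values were unevenly spread, with 9 of 15 in Os11g0116000 and 1 of 12 in Os11g0115400. How reads were divided was not tested, so both the likeness and the differences within a pair are uncertain. Where both genes of a pair were called, the calls may rest partly on the same reads.

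**Figure D5:**
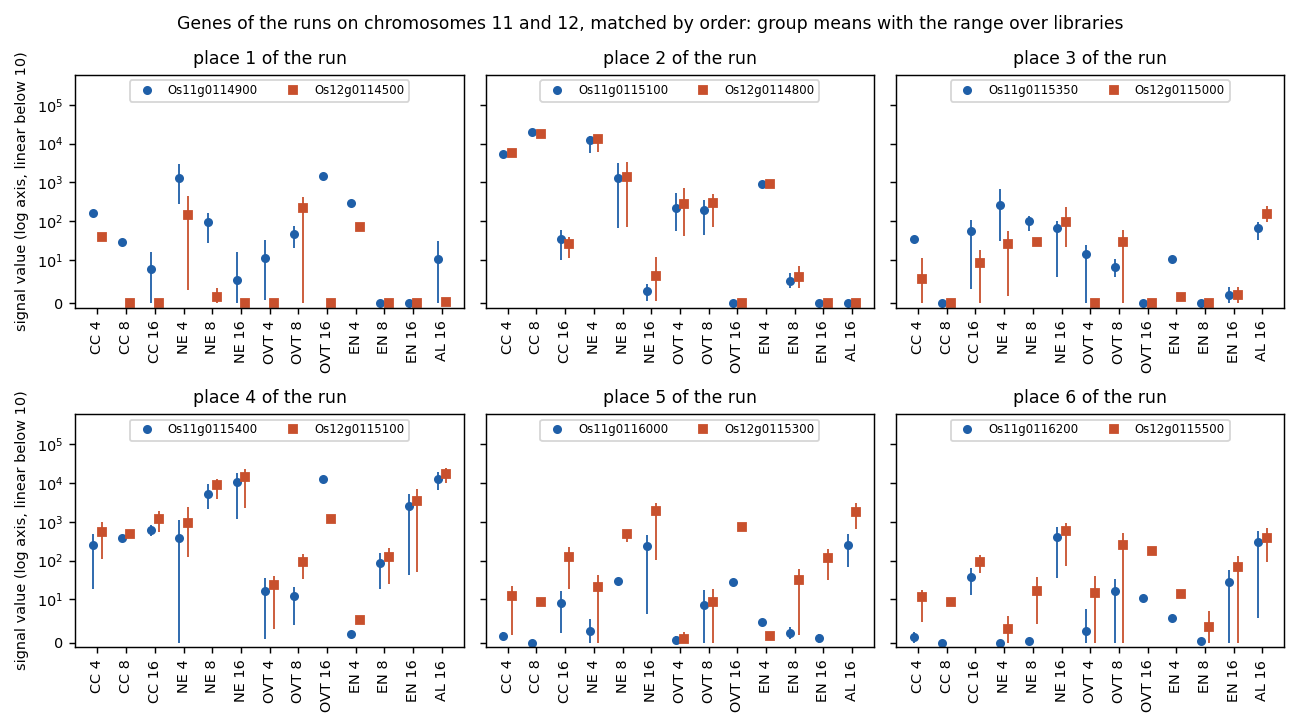
Signal values (log axis, linear below 10) of the 6 genes of the chromosome 11 run (circles) and the 6 of the chromosome 12 run (squares), matched by their order, by tissue and days after flowering. Symbols are group means and lines span the libraries. In the second place both genes are highest in CC and NE at 4 DAF and CC at 8 DAF, and in the fourth both are highest in NE at 8 and 16 DAF and in AL, with Os11g0115400 also at 12320 in OVT at 16 DAF.

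Some genes were broad. Os02g0218200, annotated with lipid transporter and metallopeptidase activity beside lipid transport, had values of 815.2 to 2099 in every CC, NE, OVT and AL library apart from CC of 8 DAF (313.8) and OVT of 16 DAF (111.2). The EN library of 4 DAF was in this range, at 1116. Later EN libraries held less, with 158.8 to 346.8 in the libraries of 8 DAF and at most 306.8 in those of 16 DAF. It was higher in AL than in EN (log2 fold change 4.05, adjusted p = 0.00289). Os05g0477900 (both terms) was above 0 in 27 of 28 libraries, with its highest mean in OVT at 8 DAF (525.5 and 80.9).

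Other lipid genes of the table are given beside these. Of 58 tested genes of fatty acid biosynthesis, which make the chains that such proteins carry, 13 fell and 2 rose in NE between 4 and 16 DAF (median log2 fold change -0.76). Of 159 genes of lipid metabolic process, 14 fell and 6 rose (median -0.17). Over all tested genes, 4.26% fell and 2.73% rose. In AL against EN, 4 fatty acid biosynthesis genes were higher and 5 lower, and 14 of the lipid metabolic process genes were higher and 14 lower. The shares of all tested genes were 6.62% higher and 3.89% lower. In OVT at 4 DAF, 17 of the 58 were lower and 0 higher (5.61% of all tested genes were lower and 6.07% higher).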

How the data were processed

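Tissues were captured by laser from frozen grain sections, and RNA was pre-amplified and sequenced from single ends. Per the labels and the study's methods, the authors used STAR and the IRGSP-1.0 genome for alignment, and reads were then counted in R. The deposited signal values are not whole counts: the low values of each library are multiples of 1 step, with 85.93 to 95.75% of those under 100 reads whole within 0.03, so they were taken as reads times 1 factor per library. GC content was deposited as a fraction without stated source, and lengths as bases. Values are given to 4 significant digits as deposited. A further signal column (1 in all), named as an OVT library of 16 DAF, matched none of the samples and was not used, so OVT at 16 DAF rests on the library that the study's table excludes.

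A gene entered the test (27527 did) if any library held both a value over 10 and at least 10 estimated reads for it. The test was made with limma 3.58.1 in R 4.3.3 on log2(value + 10), with 13 group means in 1 fit, trend and robust moderation, two-sided contrasts and Benjamini-Hochberg adjustment over all tested genes (threshold 0.05). "Other tissues" is, in the test, the mean of the other group means of log2(value + 10) of that day, without AL. The count tests planned as alternatives were not run, since the values are not whole reads. The study's methods call the replicates biological, but neither they nor the labels say whether these came from separate plants. The p-values therefore measure the spread between libraries, which may be partly technical. Groups of 1 library are assumed to vary like the others.

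Named genes were, per comparison and direction, the 5 called genes with the largest change whose libraries did not overlap, the 3 highest per kilobase in each group, and the highest gene of each class. Classes were the ontology terms, since no descriptions were at hand, and for the same reason lists of oleosin and cuticle genes and descriptions of promoters and proteins were not made. Other genes named were chosen after their values were seen. The members and lists were chosen with earlier results of these data known, and some NE and OVT markers were picked by the study from these libraries. The steps were tested on simulated data. Alternatives were TMM and upper-quartile scaling, no filter, pseudocounts of 1 and 30, the replicate block, the title prefix and leaving out each library. Voom and the interaction were added after seeing the data.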

Additional observations from a re-analysis of the deposited data

How the results depend on the processing

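No named log2 fold change turned its sign under any alternative. These changes were named because they were called and their libraries did not overlap, so a turned sign was unlikely from the start. Of 58 named changes, 20 passed the test under every alternative and 38 did not under 1 or more, most often with voom (30) or the replicate block (23), and the cause was not tested. Whether the MM numbers pair the libraries is not known. Deviations from group means of libraries with the same number correlated at -0.19 to 0.46 (median 0.022). Of these pairs, 6 of 25 were over 0.1, against 4 of 49 pairs with different numbers. With so few libraries per group, these correlations cannot decide it. Depth limits the OVT library of 16 DAF, the CC library of 8 DAF and EN MM22 of 8 DAF most, where 3 reads are worth 33.4, 28.5 and 21.65.

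Counts that moved by over 1.5 times follow. With the replicate block, AL against CC was higher for 1, CC at 4 DAF higher for 1, NE at 16 DAF higher for 2, OVT at 8 DAF lower for 4, EN at 8 DAF lower for 1, NE from 4 to 16 DAF higher for 0 and lower for 6, and CC from 4 to 16 DAF lower for 0. With TMM, AL against CC was higher for 7 and CC at 4 DAF for 1. Without a filter, AL against EN was higher for 5, AL against CC for 1, NE at 4 DAF for 4, NE at 8 DAF for 2, NE at 16 DAF for 1 and EN at 8 DAF for 1. With a pseudocount of 1, AL against CC was higher for 1, CC at 4 DAF for 1, NE at 4 DAF for 0 and NE at 16 DAF for 3, and OVT at 8 DAF was lower for 1. With a pseudocount of 30, NE at 4 DAF was higher for 6. With the title prefix, NE at 4 DAF was higher for 6, OVT at 8 DAF lower for 1, and NE from 4 to 16 DAF higher for 2. With upper-quartile scaling, AL against EN was higher for 15, AL against CC for 7, CC at 4 DAF for 4, NE at 4, 8 and 16 DAF for 4, 9 and 10, and OVT at 8 DAF for 2, while CC at 16 DAF was lower for 2, OVT at 8 DAF for 5 and CC from 4 to 16 DAF for 10. With voom, AL against CC was higher for 1 and lower for 6, CC at 4 DAF higher for 1, CC at 16 DAF lower for 0, NE at 8 DAF higher for 1, NE at 16 DAF higher for 2 and lower for 12, OVT at 8 DAF higher for 1 and lower for 1, EN at 8 and 16 DAF lower for 0 and 4, NE from 4 to 16 DAF higher for 1, and CC from 4 to 16 DAF lower for 0.

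With each library left out in turn, AL against EN was higher for 1 to 11, AL against CC higher for 0 to 6 and lower for 2 to 3, and AL against NE higher or lower for 0. CC was higher for 0 to 5, 11 to 12 and 2 to 7 at 4, 8 and 16 DAF and lower for 0 to 1, 0 to 1 and 0 to 4. NE was higher for 1 to 5, 0 to 11 and 0 to 9 and lower for 0, 1 to 5 and 0 to 5. OVT was higher for 2 to 5 and 3 to 6 at 4 and 8 DAF and lower for 4 to 16 and 0 to 4. EN was lower for 4 to 15 and 4 to 10 at 8 and 16 DAF. From 4 to 16 DAF, NE was higher for 1 to 8 and lower for 9 to 14, and CC was higher for 0 to 1 and lower for 2 to 8.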
